A study of Mus musculus with 23 samples.

Results

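A set of 6 steroid hormone genes was followed in RNA from cortical astrocytes of 4 groups of mice: the estrogen receptors Esr1 and Esr2, the progesterone receptor Pgr, the estrogen target Greb1, the glucocorticoid receptor Nr3c1 and the mineralocorticoid receptor Nr3c2. They were chosen by symbol, 6 of the 24411 genes in the count table. Esr1 was the starting point because its counts were known to differ between the genotypes and may include transcripts of the CreER transgene, so its genotype values are given as a description and carry no test. On the control diet there were 4 ConAstro and 7 cKOAstro samples, and on the SFN diet 5 ConAstro and 7 cKOAstro samples, with 1 library each. All mice were Aldh7a1 Flox/Flox, all received 4-hydroxytamoxifen on postnatal days 3 and 4, and all were labelled male and were taken at postnatal day 70. cKOAstro mice also carried CreER at 1 allele of Slc1a3 (Slc1a3 CreER/+), and ConAstro littermates carried no CreER. From postnatal day 21 the mice ate control food or food with sulforaphane (SFN), an electrophile known to activate NRF2. Astrocytes were captured from dissociated cortex on magnetic beads against the surface antigen ACSA-2.

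Steroid receptors are transcription factors that are held in an inactive complex with HSP90 and its cochaperones until a hormone binds, after which they bind short palindromic elements in DNA and recruit coactivators or corepressors. In the brain, glucocorticoids act through the glucocorticoid receptor and the mineralocorticoid receptor, and astrocytes are known to respond to them. Estrogen receptor alpha, the product of Esr1, drives Pgr and Greb1 in reproductive tissues. CreER is a Cre recombinase fused to the ligand-binding part of an estrogen receptor alpha, which keeps Cre out of the nucleus until 4-hydroxytamoxifen binds. Only counts per gene symbol were used, so reads of the endogenous Esr1 transcript and reads of the receptor part of CreER cannot be told apart here, and neither can fewer expressing cells and less RNA per cell.

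Esr1 (ENSMUSG00000019768.16) lies on chromosome 10 from 4611593 to 5005614 on the plus strand of mm10 (GRCm38). Slc1a3, which encodes the glutamate transporter GLAST and hosts CreER, lies on chromosome 15 from 8634124 to 8710764 on the minus strand. The first promoter of each is shown because the receptor part of CreER is read from the Slc1a3 locus and the endogenous gene from its own, and that of Greb1 because it is the estrogen target among the genes. Each stretch holds 250 bases before and 50 bases after the RefSeq transcript start (GRCm38.p6) and reads 5′ to 3′ on the gene's strand, with capitals marking a match to AGGTCA, an arm of the estrogen response element, on either strand. They are chr10:4611739-4612038 (plus), chr15:8710758-8711057 (minus) and chr12:16800837-16801136 (minus).
Esr1: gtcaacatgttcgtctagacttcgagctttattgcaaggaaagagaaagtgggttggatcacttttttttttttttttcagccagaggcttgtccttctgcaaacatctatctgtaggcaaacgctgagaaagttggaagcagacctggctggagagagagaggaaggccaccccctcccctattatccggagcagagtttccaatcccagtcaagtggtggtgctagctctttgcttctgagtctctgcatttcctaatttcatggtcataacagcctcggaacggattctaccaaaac
Slc1a3: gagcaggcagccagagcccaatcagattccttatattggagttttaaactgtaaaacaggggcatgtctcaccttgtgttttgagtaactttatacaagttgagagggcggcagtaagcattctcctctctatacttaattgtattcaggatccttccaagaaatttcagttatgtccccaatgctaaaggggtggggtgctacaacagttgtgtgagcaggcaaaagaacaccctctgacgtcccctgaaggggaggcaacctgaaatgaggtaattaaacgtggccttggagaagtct
Greb1: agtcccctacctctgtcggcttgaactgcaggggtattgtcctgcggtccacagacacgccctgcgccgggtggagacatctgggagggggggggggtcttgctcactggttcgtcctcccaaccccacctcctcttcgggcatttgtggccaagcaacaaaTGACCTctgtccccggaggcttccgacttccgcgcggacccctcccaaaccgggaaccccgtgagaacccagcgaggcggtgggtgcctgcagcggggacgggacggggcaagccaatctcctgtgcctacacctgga
The arm AGGTCA stood in the Greb1 promoter (as TGACCT on the printed strand) and in neither of the others. It also stood in 16.3% of all 32851 promoters of this length, searched on both strands. The full element, searched as GGTCA, any 3 bases and TGACC, was in none of the printed promoters and in 0.0700% of all promoters. No promoter of a gene in the set held the glucocorticoid element searched as AGAACA, any 3 bases and TGTTC, which stood in 0.0487% of all. Promoters of 5 of the 6 genes were matched. A match is a description of letters and says nothing of binding in these cells.

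Library totals lay between 46890715 and 391701247 counts. On the control diet they ran from 74771451 to 84049525 in ConAstro and from 107847897 to 391701247 in cKOAstro. Every cKOAstro library was thus deeper than every ConAstro library there. The markers Aqp4, Gja1, Aldh1l1, Slc1a2, Gfap, Sox9 and Atp1b2 were detected in every library and summed to between 10609 and 20988 CPM (counts scaled to library size by the trimmed mean of M values, TMM). Oligodendrocyte markers were present as well and summed to more, between 20432 and 54512 CPM. Aldh7a1, the targeted gene, measured 207 to 222 CPM in ConAstro and 45.7 to 77.7 CPM in cKOAstro (log2 fold change -1.86 ± 0.13 SE, edgeR quasi-likelihood adjusted p = 6.94e-05). It went against the label in 2 libraries. Aldh7a1 was at 55.2 CPM in the one labelled SFN-fed ConAstro replicate 1 and at 221 CPM in the one labelled SFN-fed cKOAstro replicate 2. Both were kept in their labelled groups, and results that rest on them are also given without them. A further library, labelled cKOAstro replicate 2 and male, had 1536 CPM of Xist against at most 0.705 CPM elsewhere, and 0.00767 CPM of the Y-linked gene Ddx3y against at least 83.7 CPM elsewhere.

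Esr1, the estrogen receptor alpha gene, was low in ConAstro and far higher in every cKOAstro library. ConAstro replicates 1 to 4 measured 0.961, 0.651, 1.00 and 0.763 CPM, from 48 to 87 counts each. cKOAstro replicates 1 to 7 measured 15.9, 17.2, 22.5, 18.1, 21.5, 20.8 and 16.3 CPM, from 1805 to 8329 counts each. The lowest cKOAstro library was thus above every ConAstro library, and the spread within either genotype was small beside the gap. The mean was 18.9 ± 2.64 CPM in cKOAstro (SD, n = 7) and 0.844 ± 0.165 CPM in ConAstro (SD, n = 4), a log2 fold change of 4.48 ± 0.17 (SE). Of all genes tested in this comparison 0.529% had groups that did not overlap, and since Esr1 was chosen on it nothing is read from that share.

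**Figure D1:**
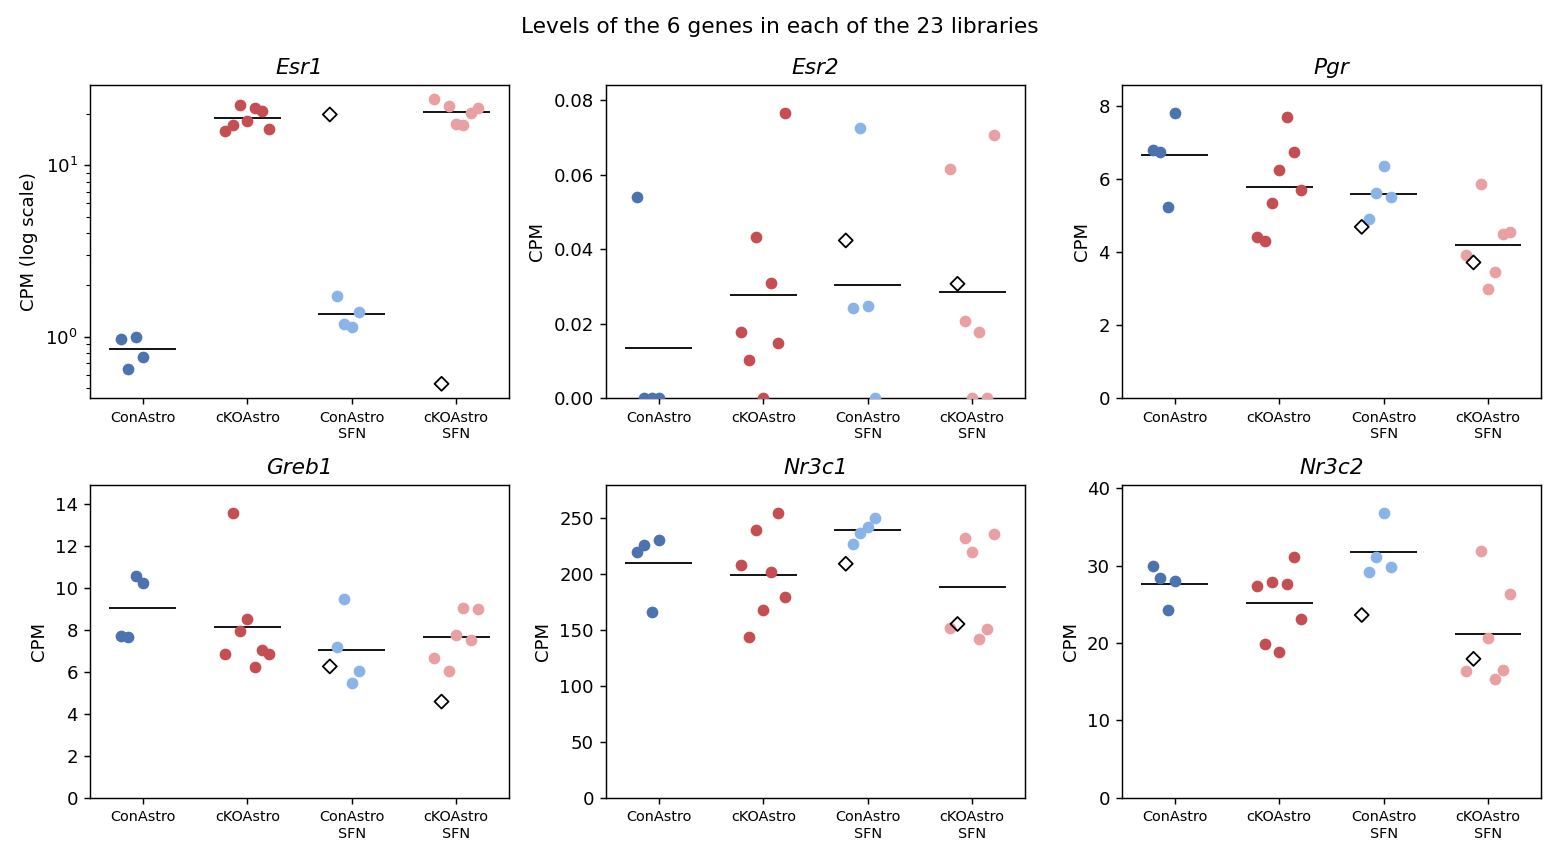
TMM-scaled CPM of each steroid hormone gene in every library of the 4 groups (log axis for Esr1, linear axes from 0 for the others), with bars for group means taken without the 2 libraries whose Aldh7a1 level went against their labels (open diamonds). Esr1 lies near 1 CPM in ConAstro and between 15.9 and 22.5 CPM in cKOAstro, while Pgr, Greb1, Nr3c1 and Nr3c2 overlap between all groups.

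On the SFN diet the same split was seen, with the 2 libraries on the side of their Aldh7a1 level. SFN-fed ConAstro replicates 2 to 5 measured 1.73, 1.18, 1.14 and 1.39 CPM, whereas the library labelled replicate 1 measured 19.8 CPM. SFN-fed cKOAstro replicates 1 and 3 to 7 measured 24.3, 22.1, 17.3, 17.2, 20.3 and 21.6 CPM, whereas the library labelled replicate 2 measured 0.530 CPM. As labelled, the groups therefore overlapped, at 5.05 ± 8.25 CPM (SD, n = 5) and 17.6 ± 7.96 CPM (SD, n = 7), with a log2 fold change of 1.82 ± 0.90 (SE). Leaving out both libraries gave 1.36 ± 0.270 CPM in ConAstro (SD, n = 4) and 20.5 ± 2.82 CPM in cKOAstro (SD, n = 6), groups that did not overlap, as for 4.55% of all genes (1.18% as labelled), with a log2 fold change of 3.92 ± 0.17 (SE). The difference between these 2 genotype differences, which is the genotype by diet term, was -2.65 ± 1.02 (log2, SE) as labelled and -0.56 ± 0.21 without both libraries.

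The effect of the diet on Esr1 was tested within each genotype, since diet played no part in choosing the gene. Within ConAstro it was 2.56 ± 0.97 on the log2 scale (SE, edgeR unadjusted p = 0.0257, adjusted p = 0.762), a value carried by the library labelled SFN-fed ConAstro replicate 1. Without that library it was 0.69 ± 0.22 (SE, 2-SE interval 0.26 to 1.12, edgeR unadjusted p = 0.0116, adjusted p = 0.561), and all 4 SFN-fed libraries lay above all 4 ConAstro libraries. Groups did not overlap for 2.04% of all genes as labelled and 5.38% without that library, so such a separation was common here, and 8.41% of all genes had an unadjusted p under 0.05 without it. Within cKOAstro the diet difference was -0.09 ± 0.46 as labelled (SE, edgeR adjusted p = 0.957) and 0.13 ± 0.11 when the one labelled SFN-fed cKOAstro replicate 2 was left out (SE, 2-SE interval -0.09 to 0.34, edgeR adjusted p = 0.737). No effect of SFN on Esr1 passed the threshold in either genotype, and a change of more than 0.34 on the log2 scale in cKOAstro lies outside the latter interval.

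The number of Esr1 counts per 1000 Slc1a3 counts put the gene beside the host locus of CreER. Slc1a3 itself was lower in cKOAstro, at 2252 ± 375 CPM (SD, n = 7) against 4539 ± 448 CPM (SD, n = 4) in ConAstro (log2 fold change -1.02 ± 0.13 SE, edgeR adjusted p = 0.0168). The ratio was 0.198, 0.150, 0.250 and 0.154 in ConAstro replicates 1 to 4, and 8.85, 7.43, 8.66, 8.44, 9.74, 7.28 and 8.73 in cKOAstro replicates 1 to 7. Its coefficient of variation in cKOAstro was 10.1%, against 14.0% for Esr1 CPM and 16.7% for Slc1a3 CPM. In the SFN-fed cKOAstro libraries other than replicate 2 the ratio was 9.51 ± 1.06 (SD, n = 6), against 8.45 ± 0.852 (SD, n = 7) in cKOAstro. That difference of 0.17 on the log2 scale did not pass (two-sided exact permutation p = 0.0769, adjusted p = 0.154 over 6 ratio tests without the 2 libraries). The library labelled SFN-fed ConAstro replicate 1 had a ratio of 9.51, within the cKOAstro range, and the one labelled SFN-fed cKOAstro replicate 2 had 0.120, below every ConAstro library.

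**Figure D2:**
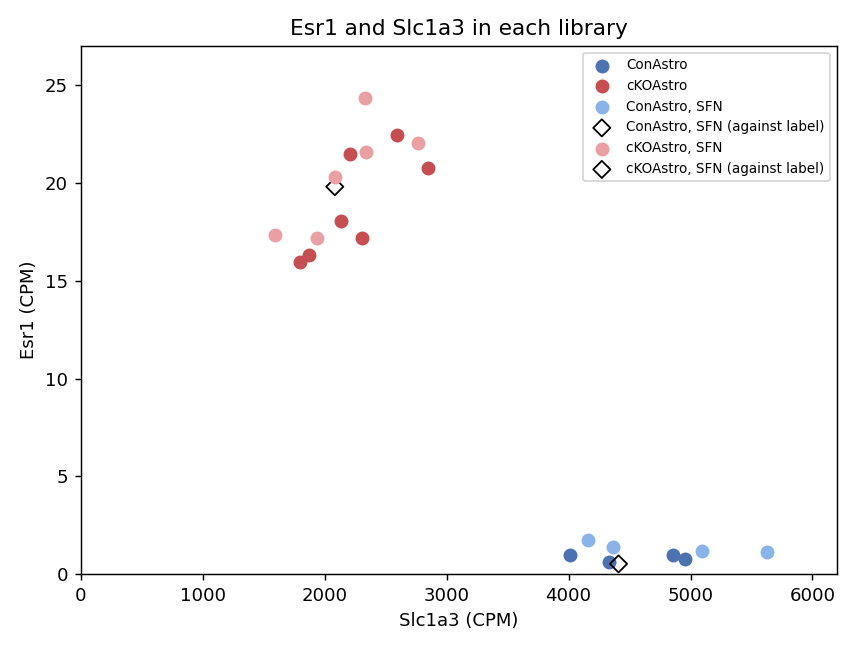
Esr1 CPM against Slc1a3 CPM (linear axes) for each of the 23 libraries, by group. The cKOAstro libraries lie at 15.9 to 22.5 CPM of Esr1 with 1800.2 to 2851 CPM of Slc1a3, and each of the 2 libraries that went against their labels (open diamonds) lies with the opposite genotype.

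Within the CreER-bearing groups, libraries with more Slc1a3 tended to have more Esr1. Over the 7 cKOAstro libraries Pearson's r of log2 CPM was 0.79 (two-sided exact permutation p = 0.0421, adjusted p = 0.163 over 9 relations) and Spearman's rho was 0.75 (exact permutation p = 0.0663, adjusted p = 0.417). With the 2 libraries farthest from the median Slc1a3 level left out, r was 0.73. Over the 6 SFN-fed cKOAstro libraries without replicate 2, r was 0.80 (exact permutation p = 0.0542, adjusted p = 0.163) and rho was 0.77 (exact permutation p = 0.103, adjusted p = 0.417). Neither relation passed after adjustment. With Aldh7a1, r within cKOAstro was -0.33 (exact permutation p = 0.448, adjusted p = 0.448). With the transcript A630020A06, r within cKOAstro was -0.37 (exact permutation p = 0.420, adjusted p = 0.448). The study had already called A630020A06 between these genotypes, so its difference (2.47 ± 0.27 log2, SE, higher in cKOAstro) is a description. In ConAstro it rested on 5 to 14 counts per library.

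Across all 23 libraries the genes whose log2 CPM was least like that of Esr1 were Aldh7a1 (r = -0.98) and Slc1a3 (r = -0.91), followed by Ireb2 (r = -0.60), AI987944 (r = -0.59) and Cntn1 (r = -0.58). The most alike of the 14180 genes with a mean of at least 1 CPM were Gm5577 (r = 0.63), Rrs1 (r = 0.61), Inafm2 (r = 0.59), C330013E15Rik (r = 0.59) and Nfkbil1 (r = 0.59). These values are descriptions, because the libraries form 2 clusters of Esr1 level that follow the Aldh7a1 level. By rank correlation Aldh7a1 remained among the 5 least alike and none of the other genes named here kept its place among the 5 at its end. Among the other steroid hormone genes r with Esr1 was 0.06 for Greb1, -0.22 for Nr3c1, -0.30 for Pgr and -0.36 for Nr3c2.

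Genes beside Esr1 on chromosome 10 were looked at as a set of 10 (Vip, Fbxo5, Mtrf1l, Myct1, Syne1, Ccdc170, Armt1, Rmnd1, Zbtb2 and Akap12). In cKOAstro against ConAstro 5 were higher and 5 lower, with a median log2 fold change of -0.0051 against -0.0072 for all genes tested, and none passed (edgeR, lowest adjusted p = 0.981). Syne1, a nuclear envelope protein, measured 602 and 606 CPM on average in ConAstro and cKOAstro. Beside the 4.48 of Esr1, the log2 fold changes of these neighbours ran from -0.32 (Akap12) to 1.13 ± 0.55 (Vip, SE, edgeR adjusted p = 0.981). At an unadjusted p under 0.05 were Rmnd1, higher in cKOAstro (0.95 ± 0.33 log2, SE, edgeR unadjusted p = 0.0146), and Akap12, lower (edgeR unadjusted p = 0.0439). Of all genes 3.74% were below it.

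Esr2, the estrogen receptor beta gene (chromosome 12, 76120419 to 76177259, minus strand), was close to absent. It had between 0 and 19 counts per library and 0 counts in 7 of the 23 libraries, among them 3 of the 4 ConAstro libraries. All ConAstro libraries held fewer total counts than any cKOAstro library. The highest level was 0.0765 CPM, in cKOAstro replicate 7. A floor of 3 counts corresponds to 0.00766 to 0.0640 CPM depending on the library, which covers counting error only. Esr2 did not reach the count minimum of the edgeR filter in any comparison. DESeq2, run without that filter, gave a log2 fold change of 1.07 ± 1.34 between the genotypes on the control diet (SE, unadjusted p = 0.423, DESeq2 adjusted p = 1.00), on 0 to 19 counts per library.

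Pgr, which encodes the progesterone receptor (chromosome 9, 8899833 to 8968611, plus strand), was low but measured in every library. ConAstro replicates 1 to 4 had 6.78, 6.74, 5.23 and 7.79 CPM. In cKOAstro it ranged from 4.30 to 7.67 CPM with a median of 5.68, so the genotypes overlapped. SFN-fed ConAstro replicates 1 to 5 had 4.68, 4.89, 5.62, 6.36 and 5.50 CPM, and SFN-fed cKOAstro ranged from 2.98 to 5.84 CPM with a median of 3.90. Levels were thus lowest in SFN-fed cKOAstro, at 4.13 ± 0.936 CPM (SD, n = 7), although that range also overlapped those of the other groups.

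The genotype difference in Pgr was -0.21 ± 0.17 on the control diet (log2, SE, 2-SE interval -0.55 to 0.13, edgeR adjusted p = 0.981) and -0.39 ± 0.16 on the SFN diet (edgeR unadjusted p = 0.0311, adjusted p = 0.218). The diet difference was -0.29 ± 0.14 in ConAstro (log2, SE, edgeR adjusted p = 0.769) and -0.47 ± 0.16 in cKOAstro (edgeR unadjusted p = 0.0107, adjusted p = 0.459), with 10.9% of all genes below an unadjusted 0.05 in the latter comparison. When the one labelled SFN-fed cKOAstro replicate 2 was left out, the latter was -0.45 ± 0.17 (edgeR adjusted p = 0.662). These 4 comparisons share groups with each other. The genotype by diet term was -0.19 ± 0.24 (log2, SE, edgeR adjusted p = 0.870).

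Greb1, an estrogen-induced coactivator of estrogen receptor alpha (chromosome 12, 16670615 to 16800886, minus strand, overlapping the antisense gene Gm48140), overlapped between the genotypes that Esr1 separated. ConAstro replicates 1 to 4 measured 7.73, 7.70, 10.6 and 10.2 CPM. cKOAstro ranged from 6.25 to 13.6 CPM with a median of 7.08, the highest value being that of replicate 2, the library with Xist. SFN-fed ConAstro replicates 1 to 5 measured 6.27, 7.18, 9.51, 5.47 and 6.07 CPM, and SFN-fed cKOAstro ranged from 4.59 to 9.06 CPM with a median of 7.52. All 4 groups overlapped.

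The genotype difference in Greb1 was -0.16 ± 0.20 on the control diet (log2, SE, 2-SE interval -0.56 to 0.25, edgeR adjusted p = 0.981), and -0.32 without cKOAstro replicate 2. A rise above 0.25 lies outside the first interval. Whether Greb1 responds to estrogen receptor alpha in these cells was not tested. On the SFN diet the genotype difference was 0.07 ± 0.18 (log2, SE, edgeR adjusted p = 0.861). Diet differences were -0.39 ± 0.18 in ConAstro (log2, SE, edgeR adjusted p = 0.769) and -0.17 ± 0.19 in cKOAstro (edgeR adjusted p = 0.738). The genotype by diet term was 0.21 ± 0.28 (log2, SE, edgeR adjusted p = 0.873).

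**Figure D3:**
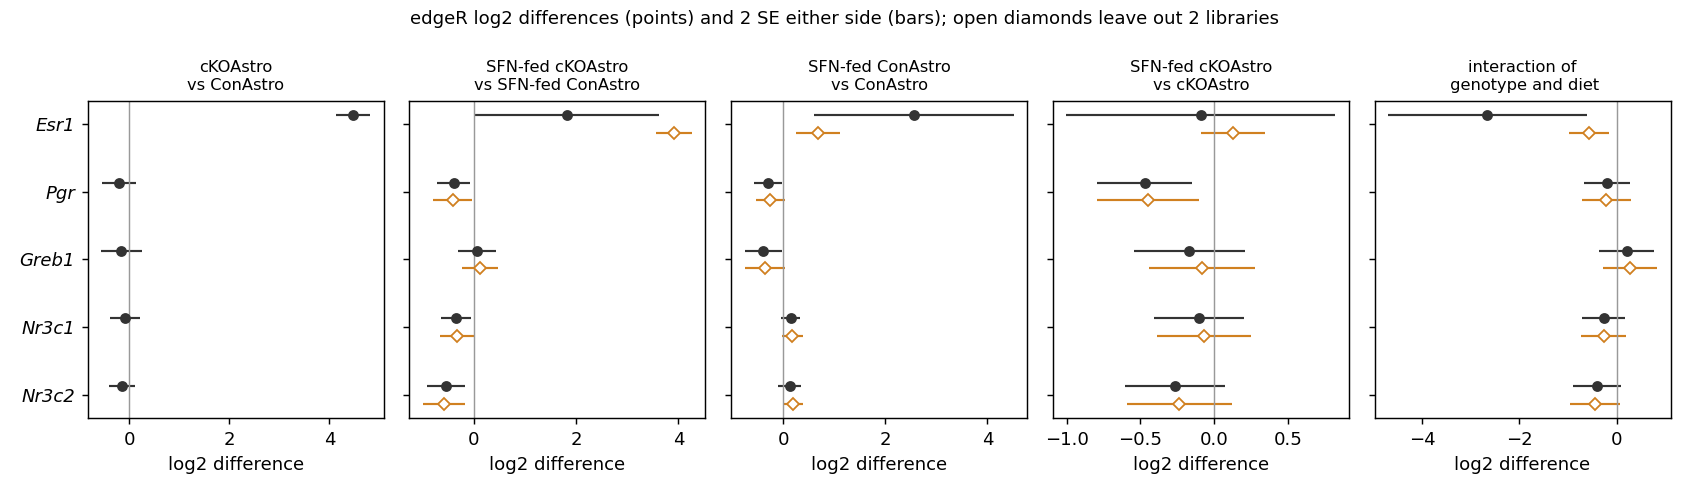
Log2 fold change of Esr1, Pgr, Greb1, Nr3c1 and Nr3c2 in the 4 pairwise comparisons and the genotype by diet term, each panel on its own scale, with bars of 2 SE either side, as labelled (filled points) and without the 2 libraries that went against their labels (open diamonds). Esr1 is at 4.48 between the genotypes on the control diet, and in the pairwise comparisons Pgr, Greb1, Nr3c1 and Nr3c2 lie between -0.58 and 0.20.

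Other estrogen targets were read as a list of 20 genes that also holds Pgr and Greb1. In cKOAstro against ConAstro 17 could be tested, 5 were higher and 12 lower, and the median log2 fold change was -0.13 against -0.0072 for all genes, of which 52.4% were lower. None passed (edgeR, lowest adjusted p = 0.981). The growth factor gene Areg, at 2.34 ± 0.89 (log2, SE, edgeR unadjusted p = 0.0221, adjusted p = 0.981), was the only gene of the list at an unadjusted p under 0.05, as were 3.74% of all genes, and it was higher in cKOAstro. Counts of these estrogen target genes moved with single libraries. Without ConAstro replicate 3, 19 could be tested and 5 were higher and 3 lower at an unadjusted p under 0.05. The 3.74% comes from the fit of all libraries, and the share in that smaller fit is not given. These counts therefore cannot be set against all genes. Without ConAstro replicate 4 the median was -0.06, with 8 higher and 11 lower. The most abundant were the lysosomal protease gene Ctsd, at 1011 ± 69.3 CPM in ConAstro (SD, n = 4) and 942 ± 199.9 CPM in cKOAstro (SD, n = 7), the chemokine gene Cxcl12, at 76.8 ± 29.8 and 58.0 ± 9.68 CPM, and the unfolded protein response factor gene Xbp1, at 71.8 ± 8.54 and 73.4 ± 18.7 CPM. The median was -0.25 between the SFN-fed genotypes (16 tested, 12 lower, against 48.8% of all genes), -0.04 for SFN in ConAstro (9 of 16 lower, against 51.6%) and -0.14 for SFN in cKOAstro (13 of 17 lower, against 48.5%), and no gene of the list passed in any of these (edgeR). Without the library labelled replicate 2 of the SFN-fed cKOAstro the last was -0.08, with 10 lower.

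Nr3c1, which encodes the glucocorticoid receptor (chromosome 18, 39410545 to 39519421, minus strand), was the most abundant of the receptors in the set. ConAstro replicates 1 to 4 measured 220.2, 226, 166 and 230.3 CPM. cKOAstro ranged from 144 to 255 CPM with a median of 202. SFN-fed ConAstro replicates 1 to 5 were close together at 209, 227, 237, 242 and 251 CPM, and SFN-fed cKOAstro ranged from 142 to 236 CPM with a median of 156. A group of 4 of the SFN-fed cKOAstro libraries, replicates 1, 2, 5 and 6, lay between 142 and 156 CPM and the other 3 between 219.6 and 236 CPM.

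Nr3c2, which encodes the mineralocorticoid receptor (chromosome 8, 76899442 to 77245012, plus strand, overlapping Gm10649 on the opposite strand), was lower in level. ConAstro replicates 1 to 4 measured 29.9, 28.3, 24.2 and 28.0 CPM, and cKOAstro ranged from 18.9 to 31.1 CPM with a median of 27.4. SFN-fed ConAstro replicates 1 to 5 measured 23.6, 29.2, 31.1, 36.8 and 29.8 CPM. SFN-fed cKOAstro ranged from 15.4 to 31.9 CPM with a median of 18.0, and replicates 3 and 7 held its highest values for both receptors. The groups overlapped for both genes, as for all but 0.0947% of genes between the cKOAstro diets.

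On the control diet neither receptor passed between the genotypes, at -0.08 ± 0.15 for Nr3c1 (log2, SE, 2-SE interval -0.38 to 0.22, edgeR adjusted p = 0.981) and -0.14 ± 0.13 for Nr3c2 (2-SE interval -0.41 to 0.13, edgeR adjusted p = 0.981). Between the SFN-fed genotypes the differences were -0.34 ± 0.15 for Nr3c1 (log2, SE, edgeR unadjusted p = 0.0365, adjusted p = 0.226) and -0.54 ± 0.19 for Nr3c2 (edgeR unadjusted p = 0.0128, adjusted p = 0.195). Without the 2 libraries against their labels they were -0.34 ± 0.17 (edgeR adjusted p = 0.356) and -0.58 ± 0.21 (edgeR adjusted p = 0.310, with 0.012% of all genes passing). With limma-voom, which weights libraries by quality, Nr3c1 (-0.48, adjusted p = 0.0141), Nr3c2 (-0.72, adjusted p = 0.0108) and Pgr (-0.42, adjusted p = 0.0259) passed, but so did 26.4% of all genes. Without SFN-fed cKOAstro replicate 3 Nr3c2 passed with edgeR (-0.68), as did 4.22% of all genes. Diet differences were 0.15 ± 0.09 for Nr3c1 and 0.13 ± 0.11 for Nr3c2 in ConAstro (log2, SE, edgeR adjusted p = 0.815 and 0.872), and -0.10 ± 0.15 and -0.27 ± 0.17 in cKOAstro (edgeR adjusted p = 0.815 and 0.532). The genotype by diet terms were -0.27 ± 0.22 and -0.40 ± 0.25 (log2, SE, edgeR adjusted p = 0.768 and 0.704).

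Leaving aside Esr1 between genotypes, no gene of the set passed the edgeR threshold in any of the 5 comparisons, nor with DESeq2 where it gave an adjusted p, which called 0.0383%, 1.78%, 0.117%, 0.029% and 0.0424% of all genes. At an unadjusted p under 0.05 there were 0 genes of the set on the control diet between genotypes, 3 between the SFN-fed genotypes (Pgr, Nr3c1 and Nr3c2, all lower in cKOAstro), 1 for SFN in ConAstro (Esr1) and 1 for SFN in cKOAstro (Pgr). Without the 2 libraries against their labels the 3 became 1, with edgeR unadjusted p-values of 0.0177 for Nr3c2, 0.0507 for Pgr and 0.0669 for Nr3c1, where 14.9% of all genes were below 0.05. Of all genes tested, 0.023%, 0.0%, 0.0% and 0.0% passed in these comparisons, and 3.74%, 20.3%, 6.54% and 10.9% had an unadjusted p under 0.05. For the genotype by diet term 0.0% of all genes passed and 7.32% had an unadjusted p under 0.05, with none of Pgr, Greb1, Nr3c1 and Nr3c2 among them. On the SFN diet 8.89% of all genes were lower at an unadjusted p under 0.05.

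In cKOAstro the ratio of Nr3c1 to Nr3c2 had a coefficient of variation of 7.97%, against 19.7% for Nr3c1 and 18.3% for Nr3c2 alone, whereas in SFN-fed ConAstro it had 11.0% against 6.76% and 15.6%. The ratio of Nr3c1 to Nr3c2 counts was 7.60 ± 0.623 in ConAstro (SD, n = 4), 7.95 ± 0.633 in cKOAstro (SD, n = 7), 7.85 ± 0.866 in SFN-fed ConAstro (SD, n = 5) and 9.04 ± 1.00 in SFN-fed cKOAstro (SD, n = 7). The ratio was higher in SFN-fed cKOAstro than in cKOAstro by 0.18 on the log2 scale (two-sided exact permutation p = 0.0326), which did not pass after adjustment (adjusted p = 0.131 over 6 ratio tests). Without replicate 2 the difference was 0.19 (exact permutation p = 0.0396, adjusted p = 0.143). Between the SFN-fed genotypes the difference was 0.20 as labelled (exact permutation p = 0.0657, adjusted p = 0.131). Without the 2 libraries against their labels it was 0.26 (exact permutation p = 0.0476, adjusted p = 0.143). On the control diet it was 0.06 (exact permutation p = 0.394, adjusted p = 0.591).

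**Figure D4:**
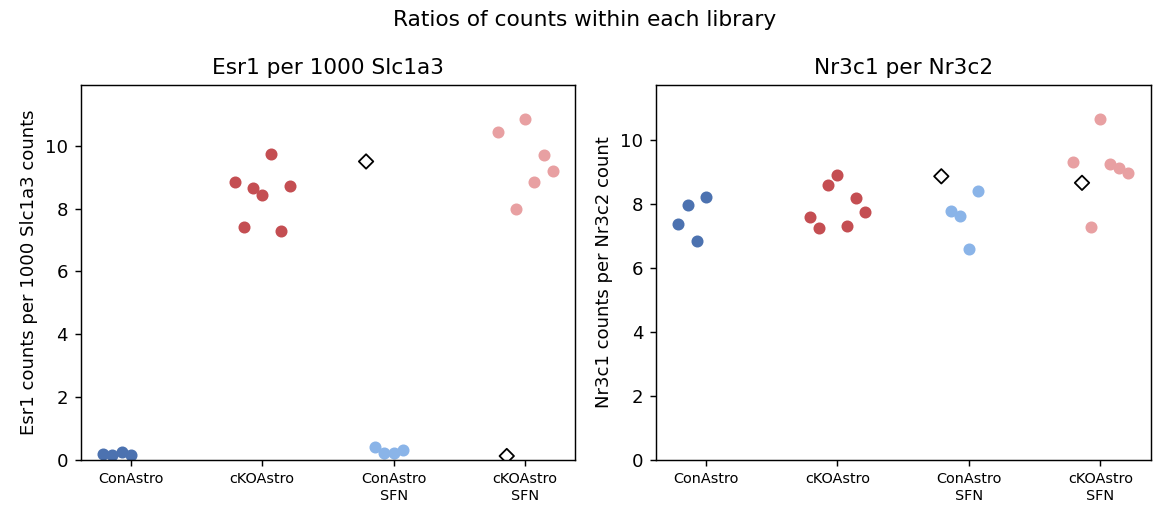
Esr1 counts per 1000 Slc1a3 counts and the ratio of Nr3c1 to Nr3c2 counts in every library, by group, on linear axes from 0, with the 2 libraries that went against their labels as open diamonds. The Esr1 ratio is 7.28 to 9.74 in all cKOAstro libraries and 0.150 to 0.250 in ConAstro, and the receptor ratio overlaps between all groups.

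Per kilobase of exon, the scale on which levels of different genes can be compared, the order in ConAstro was Nr3c1 (27.4 CPM per kb), Nr3c2 (4.27), Greb1 (0.946), Pgr (0.776), Esr1 (0.0618) and Esr2 (0.00402). Neighbours in that order did not overlap between libraries, apart from Greb1 and Pgr. In cKOAstro Esr1 held the third place, at 1.38 CPM per kb, behind Nr3c1 (26.0) and Nr3c2 (3.88) and ahead of Greb1 (0.852) and Pgr (0.675). The ranges of Esr1 and Greb1 overlapped there, as did those of Greb1 and Pgr. In SFN-fed cKOAstro the order was that of cKOAstro, with Esr1 at 1.29 CPM per kb, and in SFN-fed ConAstro that of ConAstro, with Esr1 at 0.370. The latter was set by the library labelled replicate 1, at 1.45, and without it Esr1 was at 0.0997 CPM per kb. These values divide Esr1 by the exons of the endogenous gene (13.661 kb), which the receptor part of a transgene would not share in full.

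Genes known to be induced by glucocorticoids were read as a list of 20, all of them tested. On the control diet 11 were higher and 9 lower in cKOAstro, with a median log2 fold change of 0.03, and 47.6% of all genes were higher. Between the SFN-fed genotypes 19 were higher and 1, the phosphatase gene Dusp1 (-0.40 ± 0.20, SE), was lower, with a median of 0.55 against 0.0073 for all genes, of which 51.2% were higher. None passed (edgeR, lowest adjusted p = 0.195), 12 had an unadjusted p under 0.05 and were higher, against 11.4% of all genes, and 1 passed with DESeq2 (1.78% of all genes) and 13 with limma-voom (26.4%), 12 of them higher. The count of 12 became 5 without SFN-fed ConAstro replicate 2, 7 without SFN-fed ConAstro replicate 3 and 7 without SFN-fed cKOAstro replicate 5, while 19 were higher in each. The shares of all genes below 0.05 in those smaller fits are not given, so these counts cannot be set against all genes. Without the 2 libraries against their labels the median was 0.60, with 12 genes at an unadjusted p under 0.05 and 9.01% of all genes below it and higher.

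Among the most abundant of these genes, Sgk1, a kinase that regulates ion transport, measured 457 ± 243 CPM in SFN-fed ConAstro (SD, n = 5) and 742 ± 309 CPM in SFN-fed cKOAstro (SD, n = 7), a log2 difference of 0.69 ± 0.37 (SE, edgeR adjusted p = 0.300). Tsc22d3, which encodes the glucocorticoid-induced leucine zipper, measured 349 ± 96.5 and 629 ± 271 CPM (0.84 ± 0.30, edgeR adjusted p = 0.195). The metallothionein gene Mt1 measured 373 ± 54.7 and 513 ± 123 CPM (0.45 ± 0.17, edgeR adjusted p = 0.196). In ConAstro and cKOAstro on the control diet the means were 630.0 and 459.8 CPM for Sgk1, 468 and 493 CPM for Tsc22d3, and 370.4 and 463 CPM for Mt1. Sgk1 was thus on average higher in ConAstro and Mt1 higher in cKOAstro there, neither past the threshold (edgeR, adjusted p = 0.981 for both). Ranges overlapped for Sgk1, at 412 to 769 CPM in ConAstro and 58.2 to 683 CPM in cKOAstro. They overlapped for Mt1 too, at 315 to 408 CPM and 341 to 594 CPM.

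Set against the control diet, 17 of the 20 were lower in SFN-fed ConAstro (median -0.32, against 51.6% of all genes lower). All 20 were higher in SFN-fed cKOAstro (median 0.32, against 51.5% of all genes higher). None passed in either comparison (edgeR, lowest adjusted p over all genes 0.535 and 0.459). The ConAstro value rested on 1 library: without ConAstro replicate 3, the ConAstro library with the lowest Nr3c1, 10 were higher and 10 lower and the median was -0.02. The cKOAstro median was 0.13 without SFN-fed cKOAstro replicate 5. For the genotype by diet term 19 were above 0, against 49.4% of all genes, with a median of 0.62 (0.38 without ConAstro replicate 3, with 18 above 0), and none passed (edgeR).

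The receptor chaperones, 14 genes of which Fkbp5 is also a glucocorticoid target, followed the same directions. On the SFN diet 14 of 14 were higher in cKOAstro, against 51.2% of all genes, with a median of 0.32. Of these 10 had an unadjusted p under 0.05, against 11.4% of all genes that were below it and higher, and none passed (edgeR, lowest adjusted p = 0.195). The HSP90 gene Hsp90ab1 measured 1164 CPM on average in SFN-fed ConAstro and 1506 CPM in SFN-fed cKOAstro (0.37 ± 0.13 log2, SE, edgeR adjusted p = 0.195), and the HSC70 gene Hspa8 measured 639 and 840.2 CPM (0.39 ± 0.14, edgeR adjusted p = 0.195). For SFN the median was -0.16 in ConAstro, where 14 of 14 were lower against 51.6% of all genes, and 0.15 in cKOAstro, where 14 of 14 were higher against 51.5%. Without ConAstro replicate 3 the ConAstro median of the receptor chaperones was -0.07, with 13 lower. On the control diet it was 0.02 between genotypes, with 10 higher and 4 lower.

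**Figure D5:**
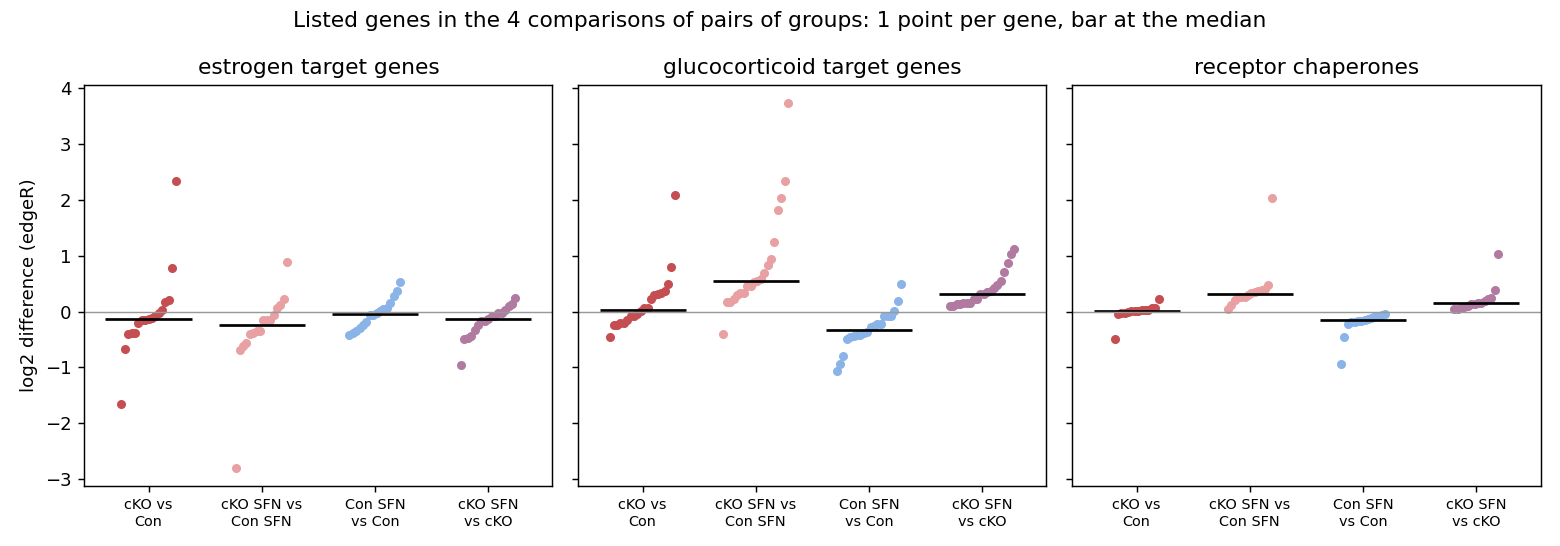
Log2 fold changes of the genes in the estrogen target, glucocorticoid target and receptor chaperone lists in each pairwise comparison, 1 point per gene, with the median of each list. Glucocorticoid targets and chaperones lie mostly above 0 between the SFN-fed genotypes (medians 0.55 and 0.32), and the medians of the estrogen targets lie between -0.25 and -0.04, with genes on both sides of 0 in every comparison.

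Markers of other cells were compared between the same groups. Between the SFN-fed genotypes the median log2 fold change was -0.80 for 7 endothelial, -0.67 for 7 microglial, -0.48 for 7 mural, -0.76 for 6 fibroblast and -0.51 for 6 oligodendrocyte precursor markers, against -0.06 for the 7 astrocyte markers. It was 0.26 for 7 oligodendrocyte, 0.27 for 5 ependymal and 0.06 for 8 neuronal markers, and 1 red blood cell marker could be tested, at 1.34. No marker passed (edgeR, lowest adjusted p = 0.195). Without the 2 libraries against their labels the microglial median was -0.34, the ependymal 0.12 and the astrocyte -0.13. Summed oligodendrocyte markers ran from 20432 to 28565 CPM in SFN-fed ConAstro and from 22588 to 54512 CPM in SFN-fed cKOAstro. Summed endothelial markers ran from 399.7 to 632 CPM in SFN-fed ConAstro and from 149 to 637 CPM in SFN-fed cKOAstro, and no marker in these lists was at 0 in any library, apart from 4 of the 5 red blood cell markers. Immediate early genes, a sign of dissociation, had a median of -0.27. The part of these differences in the values of Nr3c1, Nr3c2, Pgr and the glucocorticoid targets was not tested.

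In the remaining lists of the pathway, Esr1 between genotypes being left aside as untested, none of the genes passed (edgeR) in the 4 pairwise comparisons. The estrogen-related receptors, orphan receptors near to Esr1 in sequence, measured in ConAstro and cKOAstro, in that order, 66.6 and 62.5 CPM for Esrra, 6.10 and 5.74 CPM for Esrrg and 2.50 and 2.00 CPM for Esrrb. The most abundant genes in the list of membrane and non-nuclear steroid receptors were Paqr8, Paqr7 and Paqr4. In the same groups they measured 504 and 451 CPM, 352 and 328 CPM, and 133 and 130.1 CPM, in that order. Medians over the membrane receptors (10 tested) were -0.04, 0.05, 0.05 and 0.10 for the control diet genotypes, the SFN-fed genotypes, SFN in ConAstro and SFN in cKOAstro. Over the 13 genes of steroid metabolism tested, which include the cortisone-reducing enzyme gene Hsd11b1, they were -0.02, 0.09, -0.01 and 0.13.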

How the data were processed

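Per the labels, polyadenylated RNA of ACSA-2-captured cortical cells was sequenced in pairs on an Illumina NovaSeq6000, with 1 library per sample. Per the submitters' processing notes and the study's methods, reads were checked with FastQC, aligned to mm10 with STAR and counted per gene, and the authors deposited the raw counts of 24411 gene symbols with no normalization or pooling. Tool versions, the annotation and any use of strand in counting are not given in the sources used here, so overlapping genes are uncertain. Counts up to 20 were even in 63.2% to 66.7% of cases per library, and the cause was not tested.

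Columns were matched to samples by the library names in the labels. Counts were tested with edgeR 4.0.16 (quasi-likelihood, TMM, filterByExpr with a minimum count of 10 and a minimum total of 15) in R 4.3.3, with each pair of groups fitted alone and the genotype by diet term fitted over all 4. Two-sided p-values had Benjamini-Hochberg adjustment across every gene of a fit and a threshold of 0.05. Each SE is the absolute log2 fold change over the root of its F statistic, and log2 CPM has a prior count of 2. Counts per kb use the merged exons of GENCODE M21 (GRCm38), which held 23376 of the symbols, and promoters come from RefSeq (GRCm38.p6). Ratios and correlations had exact permutation tests (scipy 1.17.1, Python 3.11.15). The scripts were tested on simulated data. No library pair in a group was alike within counting noise (lowest chi-square per degree of freedom 42.4). P-values measure the spread between these samples, and floors cover counting error only.

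The genes and lists were chosen with earlier results of these data known. Of the 191 listed genes 189 were in the table, H6pdh and Sts not being analysed here. The result of 1 list is not reported here. Named genes were the 6 of the set, Aldh7a1, Slc1a3 and A630020A06, the 3 most abundant other genes of each list, up to 5 genes per list and comparison past the threshold, and the 5 genes most and 5 least like Esr1. Areg, Dusp1, Fkbp5, Vip, Rmnd1, Akap12, Xist and Ddx3y fall outside this rule and were named after their values were seen. The 2 libraries against their labels were defined by their Aldh7a1 level alone. Library names fell into 2 series, with 17 numbered and 6 named Astro. The Astro names belonged to 3 of the SFN-fed cKOAstro libraries, 2 on the control diet in cKOAstro, and 0 in ConAstro. The remaining 1 was SFN-fed ConAstro replicate 1, which went against its label. Without that library the Astro series held only cKOAstro mice, so name series and genotype were not independent. Alternatives were DESeq2 1.42.0, limma-voom (limma 3.58.1) with quality weights, relative log expression (RLE) scaling, no filter, a replicate block, the numbered libraries alone or the name series as a covariate, thinned counts, all 4 groups in 1 fit, leaving out libraries, and halved counts, the last chosen after seeing the data.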

Additional observations from a re-analysis of the deposited data

Results flagged for a closer look

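In groups of 4 to 10 libraries the gap of the highest or lowest library to its neighbour was set against the range of the group (Dixon's test at the 95% level). Of 28 combinations of a gene and a group 6 held such a library, where chance gives about 1 in 20. The combinations share the same libraries and are not independent, so the excess over chance cannot be judged from this count. In SFN-fed ConAstro, Esr1 was 19.8 CPM in replicate 1 as labelled, against at most 1.73 CPM in the other 4. In SFN-fed cKOAstro, replicate 2 as labelled had Esr1 at 0.530 CPM and Slc1a3 at 4409.9 CPM, against at least 17.2 CPM and at most 2764 CPM in the other 6. Both libraries also had the Aldh7a1 level of the opposite genotype. Greb1 was 13.6 CPM in cKOAstro replicate 2, the library with Xist, against at most 8.55 CPM in the other 6. Nr3c1 was 166 CPM in ConAstro replicate 3, against at least 220.2 CPM in the other 3. Esr2 was 0.0542 CPM (4 counts) in ConAstro replicate 1 and at 0 in the other 3.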

How the results depend on the processing

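Between the SFN-fed genotypes limma-voom called 3 of the genes (Pgr, Nr3c1 and Nr3c2) where edgeR called 0, leaving out 1 library called 0 to 1, and all genes called went from 0 to 254 with DESeq2, 4398 with limma-voom, 3 with all 4 groups in 1 fit and 2 without the libraries against their labels, and from 0 to 701 when 1 library was left out (701 without SFN-fed cKOAstro replicate 3). On the control diet the 4 genes called between genotypes were 8 with DESeq2, 1 with the replicate block, 0 with all 4 groups in 1 fit and 2 to 4 when 1 library was left out (2 without ConAstro replicate 4). DESeq2 called 21 genes for SFN in ConAstro, 6 for SFN in cKOAstro and 8 for the genotype by diet term, where edgeR called 0. The cause of these differences between tools was not tested.

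Directions turned for small values. Nr3c1 between genotypes on the control diet was 0.053 among numbered libraries and 0.039 with the name series as a covariate. Greb1 between the SFN-fed genotypes was -0.12 with limma-voom, -0.11 among numbered libraries and -0.0039 to 0.21 when 1 library was left out. Esr1 for SFN in cKOAstro was 0.13 without the libraries against their labels and -0.18 to 0.13 when 1 library was left out. With the 2 farthest libraries left out, r of Esr1 was 0.0076 with Aldh7a1 in cKOAstro, 0.70 with Slc1a3 in SFN-fed cKOAstro as labelled (-0.80 with all 7), and 0.28 with A630020A06 in SFN-fed cKOAstro without replicate 2. Per kb of the longest transcript, 2 genes of SFN-fed ConAstro changed rank, Esr1 passing Pgr. The median of the steroid metabolism list for SFN in cKOAstro was -0.0091 with no filter. The median of the genes beside Esr1 between the SFN-fed genotypes was -0.33 among numbered libraries and -0.19 to 0.13 when 1 library was left out, and for the genotype by diet term -0.36 to -0.0896.

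The replicate numbers share only a name: same-numbered libraries deviated together with correlations of -0.194 to 0.336, and 2 of 20 correlated best with their own number. With the replicate block Greb1 between the SFN-fed genotypes was -0.028, and 0 of the genes other than Esr1 between genotypes passed. Among the glucocorticoid target genes 6 had an unadjusted p under 0.05 there, against 12 without the block. The share of all genes below it with the block is not given, so the 6 cannot be set against all genes. Over all alternatives other than leaving out single libraries, 785 values kept their direction and side of the threshold, 16 moved, 9 turned and 4 came to pass. Esr2, at no more than 0.0765 CPM in any library, stayed under the edgeR filter, and Esr1 in ConAstro rests on 48 to 87 counts per library.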
